A study of Mus musculus with 6 samples.

Results

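Neutrophils of the postnatal mouse lung were described from the 2944 cells that the deposited annotation calls Neut 1, of 61839 cells in all. The cells were taken by that label and by no threshold on expression. The lungs came from 36 C57BL/6 mice, 6 for each of 3 ages (P3, P7 and P14) and 2 oxygen levels: room air (normoxia, 21% O2) or hyperoxia (85% O2) from the day of birth (P0) to harvest. Hyperoxia from birth arrests the formation of alveoli and serves as a model of bronchopulmonary dysplasia, the chronic lung disease of infants born preterm. The normoxic mice of the same age were the controls. Perfused whole lungs were digested, each mouse was tagged with a sample barcode (MULTI-seq), and pools of tagged cells were run on 10x droplets as 6 libraries of 5 pools. Within a pool, 3 mice of an age had breathed room air and 3 hyperoxia. Oxygen levels could therefore be compared inside pools, whereas the P14 pools held no other age.

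Neutrophils are short-lived granulocytes that leave the bone marrow, follow chemokines such as those that bind the receptor CXCR2 into injured tissue, and kill microbes with granule proteins and with oxidants made by NADPH oxidase. Granules are filled in order while the cell matures: transcripts of azurophil and specific granule proteins belong to bone marrow precursors, and those of gelatinase granules and of receptors such as Csf3r and Cxcr2 to mature cells. In injured lung they are also a source of cytokines, among them interleukin-1β, which has a known part in experimental bronchopulmonary dysplasia.

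The cells were small and shallow, with a median of 1340.5 UMIs (counted transcript molecules) and 650 genes per Neut 1 cell against 4734 UMIs and 1972 genes in all other cells. Between 25 and 187 Neut 1 cells per mouse were summed for tests on expression, which gave 45688 to 294707 UMIs. Hyperoxic P7 replicate 5, with 7 Neut 1 cells of 125 cells, was left out of them, so that hyperoxia at P7 had 5 mice and every other group 6. Depth moved with pool and, at P14, with oxygen. The median UMIs per Neut 1 cell were 803 to 975 in the mice of the second P3 pool and 1713 to 2081 in the P3 mice of the pool shared with P7. At P14 they were 888.5 to 1194 in normoxia and 1240 to 1360 in hyperoxia (exact permutation test, adjusted p = 0.00649). Transcripts of other cells were counted too: the alveolar epithelial transcript Sftpc stood at 2019 CPM (a gene's summed UMIs over all summed UMIs, on the usual CPM scale) in Neut 1 cells and at 986 CPM in B cells. No cell barcode was shared by Neut 1 cells of different libraries, while 43 Neut 1 cells had one that also occurred in another library. The sample barcode of the assigned mouse was the most frequent one in 92.97% of Neut 1 cells. The most frequent one held a median of 61.8% of their sample barcode UMIs. Cells were kept with the mouse of the deposited annotation, and the effect of this on the results was not tested. The mice were separate animals, but nothing in the labels ties them to litters.

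The label held against its markers. S100a8 and S100a9, the subunits of calprotectin and the most abundant cytosolic proteins of neutrophils, stood at 42985 and 68357 CPM in Neut 1 cells and at 2451 and 935 CPM in monocytes, the next type after the smaller neutrophil cluster Neut 2 (98780 and 143013 CPM). Retnlg, a secreted neutrophil protein, stood at 6749 CPM in Neut 1 and at 15521 CPM in Neut 2. Mmp9, the gelatinase of tertiary granules, stood at 1044 CPM in Neut 1, 1158 CPM in Neut 2 and at most 18.6 CPM outside both neutrophil clusters. Csf3r, the receptor for the growth factor G-CSF, was highest of the 34 types in Neut 1 (1083 CPM) and stood at 115 CPM in Neut 2. The specific granule genes Camp, Ngp and Ltf separated both clusters: they stood at 69.2, 101 and 14.7 CPM in Neut 1 and at 31341, 26787 and 7230 CPM in the 243 cells of Neut 2. Transcripts of the granules that are filled early thus lay mainly in Neut 2. Neut 1 was also the type with the highest level, of 34, of the chemokines Cxcl2 (16348 CPM) and Cxcl3 (229 CPM), of Il1b (8183 CPM), of the chemokine receptor Cxcr2 (472 CPM), of the secreted factors Prok2 (295 CPM) and Wfdc17 (1343 CPM), and, at lower counts, of the antioxidant regulator Nfe2l2 (467 CPM, with monocytes at 460 CPM) and the endotoxin receptor Tlr4 (57.2 CPM). All these levels were summed over both oxygen levels, and 1866 of the Neut 1 cells were hyperoxic against 1078 normoxic. The normoxic medians of Wfdc17 given below lay under the 750 CPM of all monocytes. Those of Cxcl3 at P7 and P14 lay under the 135 CPM of group 2 innate lymphoid cells. These levels describe the pooled cells of the cluster and were not tested, since the same genes drew its borders.

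Neut 1 cells made up a larger part of the deposited lung cells of a mouse in hyperoxia than in normoxia, and the difference passed the test at P14. These are shares of the cells recovered after digestion and kept, not counts in the tissue. The paper names dissociation bias and low cell numbers as limits on counting cells in such data. At P14 they were 1.97%, 2.08%, 2.62%, 2.62%, 2.70% and 4.99% of the cells of the 6 normoxic mice and 4.72%, 5.01%, 6.09%, 8.39%, 9.64% and 11.1% of those of the 6 hyperoxic mice. The groups overlapped by 1 mouse, normoxic replicate 5, which exceeded hyperoxic replicate 4 and no other. The means were 2.83% ± 1.10 (SD, n = 6) and 7.50% ± 2.62 (SD, n = 6; exact permutation test over mice, adjusted over 102 tests of 34 types and 3 ages, adjusted p = 0.0340). The differences at P3 and P7 were 2.48 and 2.27 percentage points and missed the threshold (exact permutation tests, adjusted p = 0.0519 and 0.110). The hyperoxic mean exceeded the normoxic mean in all 6 combinations of age and pool, by 1.60 to 6.11 percentage points. At P14, 11 of the 34 types had a share that passed the test, and neither Neut 2 (0.193% ± 0.102 and 0.284% ± 0.280, SD, n = 6, exact permutation test, adjusted p = 0.685) nor alveolar macrophages (6.27% ± 1.14 and 4.97% ± 1.63, SD, n = 6, exact permutation test, adjusted p = 0.385) was among them.

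The reading at a single age depended on the denominator. As a share of the myeloid cells, Neut 1 rose at P3, from 18.6% ± 3.29 to 29.5% ± 3.87 (SD, n = 6; exact permutation test, adjusted p = 0.0173), while the difference at P14, from 20.2% ± 6.69 to 33.2% ± 6.02, missed the threshold (exact permutation test, adjusted p = 0.0649). As a share of the immune cells it passed at P3 (15.5% ± 2.81 to 25.0% ± 3.88, SD, n = 6) and at P14 (8.93% ± 2.56 to 22.3% ± 5.92), both with adjusted p = 0.0276 (exact permutation tests), and a count model of the cells per mouse passed at P14 (log2 ratio 1.41, edgeR, adjusted p = 0.000391) and not at P3 or P7 (adjusted p = 0.0709 and 0.0610). Interstitial macrophages also rose at P14, from 1.58% ± 0.428 to 4.36% ± 1.42 of all cells (exact permutation test, adjusted p = 0.0245). With oxygen labels exchanged only within pools, the adjusted p at P14 was 0.0600 in the exact permutation test. No difference between ages at the same oxygen level passed the test, and the effect of hyperoxia at P14 did not differ from that at P3 by the test (2.18 percentage points more, permutation test with 100000 resamples, adjusted p = 0.558). The shallowest Neut 1 cell held 501 UMIs, and at P14 depth per cell was higher in hyperoxia also in all other cells, whose medians per mouse were 3084 to 3679 UMIs in normoxia and 5881 to 8640.5 UMIs in hyperoxia. The part of depth in the share was not tested.

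**Figure D1:**
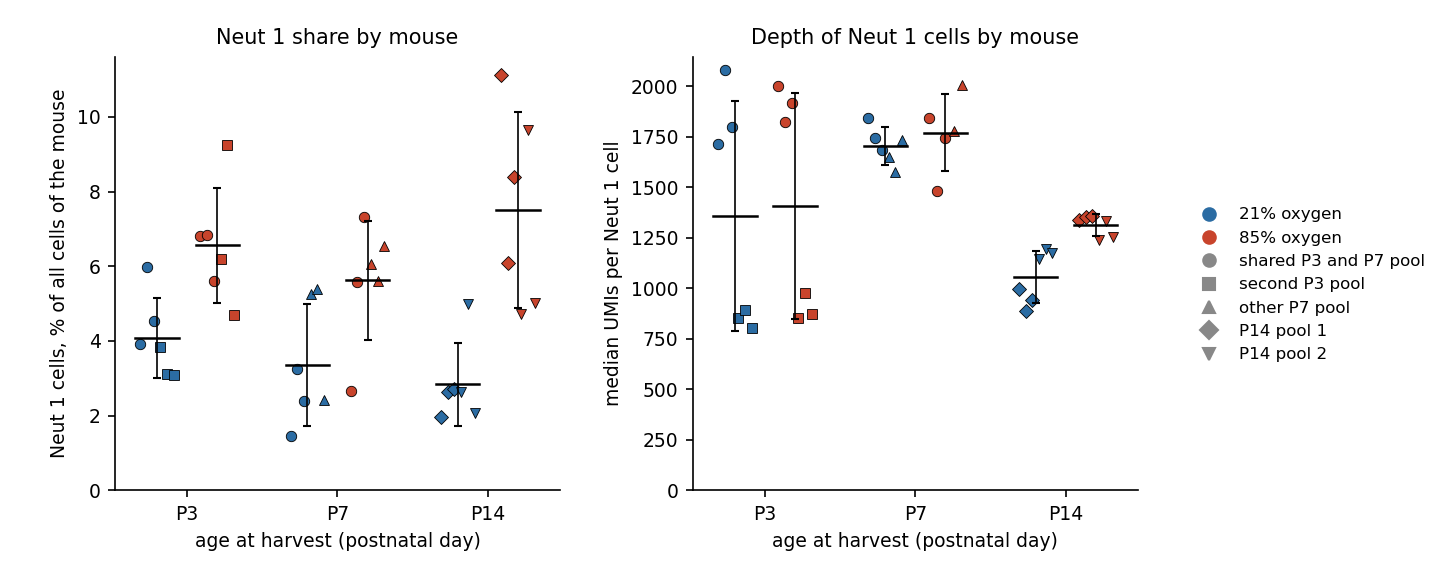
Share of Neut 1 cells among all cells of a mouse (left panel, percent) and median UMIs per Neut 1 cell (right panel) by age and oxygen level, with 1 point per mouse, its shape giving the pool, and bars for the mean and SD (n = 6 mice per group, and 5 for hyperoxia at P7 in the right panel). The hyperoxic mean shares lie at 6.56%, 5.62% and 7.50%, above the normoxic means of 4.08%, 3.36% and 2.83%, the groups overlap at each age, and the mice of the second P3 pool lie at 803 to 975 UMIs.

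In the fit over mice of every age, adjusted for age, hyperoxia changed a set of cytokine, protease inhibitor, iron storage and stress genes in Neut 1 cells, and the 5 markers of the cluster missed the threshold. Of 1385 genes tested, 162 (11.7%) passed (edgeR quasi-likelihood test on UMI sums per mouse, Benjamini-Hochberg adjusted p below 0.05, and UMIs detected in 10% or more of the cells of either oxygen level), 100 higher (7.22%) and 62 lower (4.48%). The direction agreed in all 6 combinations of age and pool for 63 of the 100 increases and 35 of the 62 decreases. The split between increases and decreases rested on scaling: it was 227 to 2 when all genes with low counts were kept, which moved the median of all genes by 0.19 (log2), and 64 to 159 when total UMIs replaced TMM factors, which moved it by -0.09. With the low genes kept all 100 increases passed with their sign, while 61 of the 62 decreases kept their sign and 2 passed. With those genes kept but scaled by the factors of the filtered genes, 74 of the 100 and 35 of the 62 passed, and with total UMIs 64 of the 100 and 62 of the 62, all genes keeping their sign under both.

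The largest increase was in Wfdc17, a small whey acidic protein that is made by activated myeloid cells (log2 fold change 2.58 ± 0.35 SE, adjusted p = 2.71e-06). Without the mice of the second P3 pool Wfdc17 was at 2.12 ± 0.35, below Cxcl3 (2.54 ± 0.46) and Cstb (2.34 ± 0.24). At P3 Wfdc17 stood at 206 to 483 CPM in normoxia (median 284 CPM) and at 91.6 to 6275 CPM in hyperoxia (median 2165 CPM), and at P14 at 208 to 1029 CPM (median 514 CPM) and 696 to 5077 CPM (median 2199 CPM). The 5 hyperoxic P7 mice had 221, 563, 2147, 344 and 493.3 CPM, against 98.6 to 417 CPM in normoxia (median 164 CPM). The groups thus overlapped at every age. Of the 5 hyperoxic P7 mice 2 lay within the normoxic range and 3 above it, replicate 3 by far the highest.

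Cstb, which encodes the cysteine protease inhibitor stefin B, rose with the same adjusted p as Wfdc17 (1.92 ± 0.26, adjusted p = 2.71e-06). The effect on Cstb at P7 and at P14 differed from that at P3 by the interaction tests described below. Wfdc17 passed none of these tests, which does not show an equal effect at every age. The levels of Cstb are given by age. At P3 its level was 184 to 463 CPM in normoxia (median 242 CPM) and 197 to 320 CPM in hyperoxia (median 290 CPM). At P7 it was 107 to 316 CPM in normoxia (median 191 CPM) and 1324, 962, 1443, 977 and 842 CPM in the 5 hyperoxic mice. At P14 it was 37.9 to 287 CPM in normoxia (median 102 CPM) and 963 to 2777 CPM in hyperoxia (median 1212 CPM). The oxygen groups were intermingled at P3 and fully apart at P7 and P14.

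Cxcl3, a ligand of CXCR2 that attracts further neutrophils, rose by 2.17 ± 0.41 (adjusted p = 0.000228), from 0 to 59.8 CPM in normoxia at P14 (median 15.5 CPM) to 74.8 to 465 CPM in hyperoxia (median 322 CPM), so that these groups did not overlap. Prok2, a secreted prokineticin, rose by 1.63 ± 0.29 (adjusted p = 0.00015). At P7 it stood at 8.21 to 320 CPM in normoxia (median 88.3 CPM) and at 331, 468, 665, 674 and 484 CPM in the hyperoxic mice, which lay above all normoxic ones. The other increases among the 10 largest were in Basp1 (1.75 ± 0.27), a membrane-bound protein of the cell cortex, in the stress genes Gadd45g (1.63 ± 0.27), Ddit3 (1.33 ± 0.20), the CHOP factor of the integrated stress response, and Hsp90aa1 (1.30 ± 0.28), a heat shock chaperone, in Dedd2 (1.27 ± 0.18), a death effector domain protein, and in Ifitm1 (1.24 ± 0.20), an interferon-inducible membrane protein. Ddit3 stood at 20.2 to 158 CPM in normoxia at P14 (median 79.8 CPM) and at 191 to 525 CPM in hyperoxia (median 240 CPM), apart, and overlapped at the younger ages.

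The largest decreases were smaller than the largest increases. Degs1, a desaturase that makes ceramide, fell by 0.79 on the log2 scale (SE 0.15, adjusted p = 0.000208). At P7 it stood at 156 to 356 CPM in normoxia (median 248 CPM) and at 110, 108, 95.6, 112 and 118 CPM in hyperoxia, below every normoxic mouse. Lyz2, which encodes lysozyme, fell by 0.63 (SE 0.14, adjusted p = 0.00149), and at P7 from 2334 to 3908 CPM (median 2985 CPM) to 1887, 1145, 630, 1651 and 1638 CPM, again apart. Lyz2 was higher in monocytes (16759 CPM) and in Neut 2 (10129 CPM) than in Neut 1 cells (1803 CPM). The summed level of all 8 monocyte markers in Neut 1 cells moved with it, from 209 to 809 CPM in normoxia at P7 (median 235 CPM) to 133 to 222 CPM in hyperoxia (median 144 CPM), and at P14 from a median of 236 to 178 CPM. None of the 8 was at 0 over all Neut 1 cells. Csf1r, with the highest mean of the 8 over mice, made up 46.5% to 62.8% of the sum by group. The 5 Neut 2 genes Camp, Ngp, Ltf, Fcnb and Chil3 summed in Neut 1 to medians of 374 CPM in normoxia and 172 CPM in hyperoxia at P7. At P14 these medians were 197 and 95.6 CPM, and at P3 66.2 and 65.7 CPM. The part of the monocyte and Neut 2 transcripts in the result was not tested. The others of the 10 were N4bp2l1 (-0.75 ± 0.19), Nin (-0.72 ± 0.17), a centrosome protein, Far1 (-0.69 ± 0.20), a reductase of ether lipid synthesis, the ribosomal genes Rpl10a (-0.65 ± 0.16) and Rpl3 (-0.60 ± 0.17), the transporter-like gene Mfsd14b (-0.62 ± 0.14), the mitochondrial gene mt-Nd3 (-0.61 ± 0.20) and Tmsb10 (-0.59 ± 0.18), an actin-binding thymosin.

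**Figure D2:**
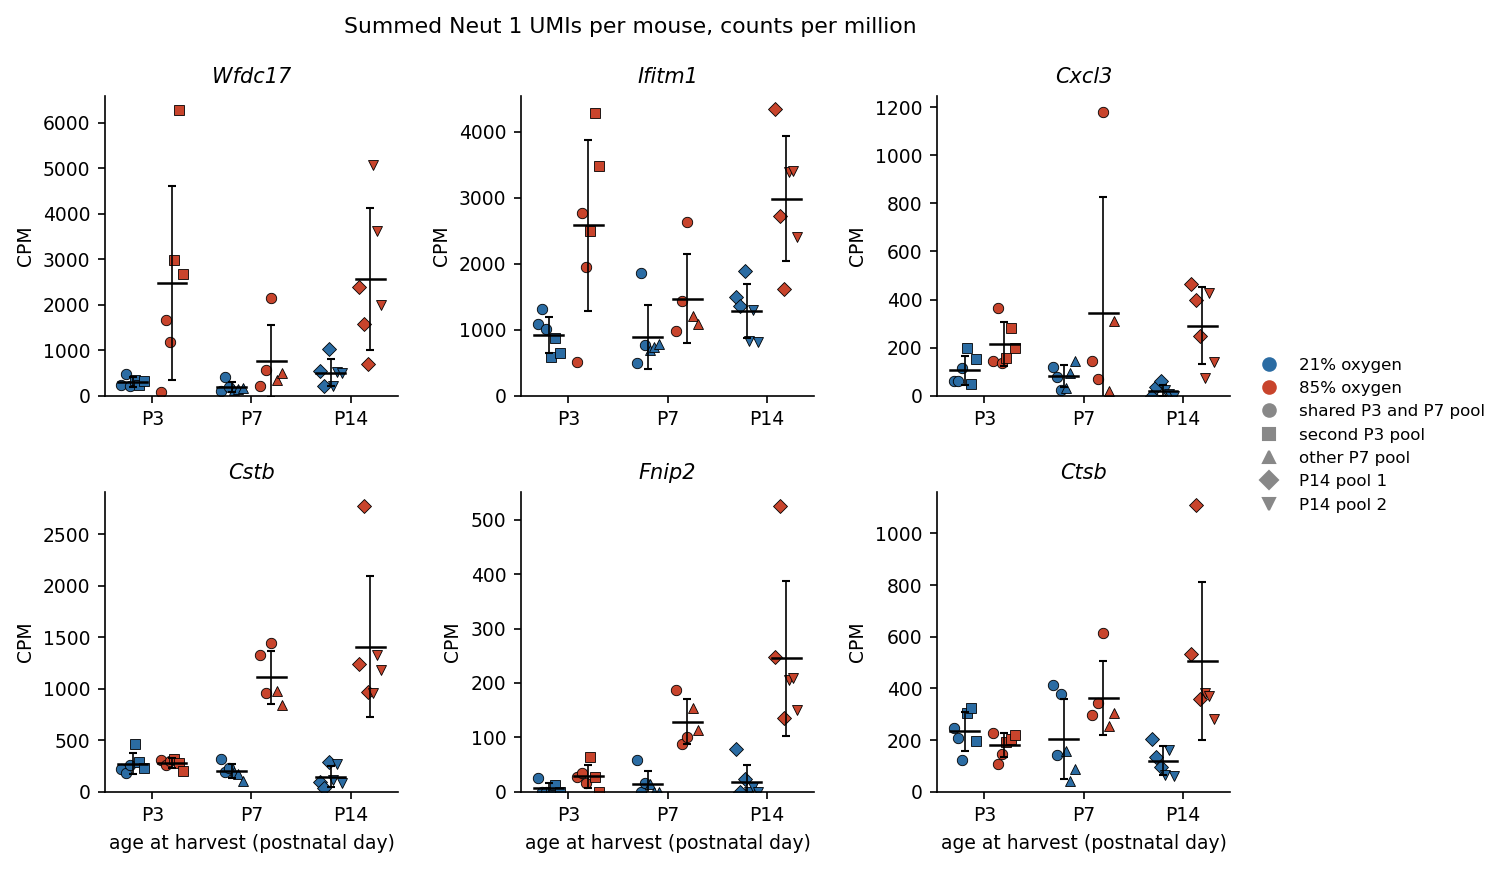
Levels of 6 genes in Neut 1 cells (CPM of summed Neut 1 UMIs, vertical axes from 0) by age and oxygen level, with 1 point per mouse, its shape giving the pool, and bars for the mean and SD, cut at 0. Cstb lies at 963 to 2777 CPM in the 6 hyperoxic P14 mice, above the 37.9 to 287 CPM of the normoxic ones, and overlaps at P3.

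The markers that name the cluster did not pass the test over all ages. S100a8 and S100a9 differed by 0.22 ± 0.12 and 0.22 ± 0.11 (adjusted p = 0.225 and 0.164), Retnlg by -0.28 ± 0.15 (adjusted p = 0.232), Csf3r by 0.13 ± 0.09 (adjusted p = 0.384) and Mmp9 by -0.11 ± 0.10 (adjusted p = 0.518). Thinning turned the sign of Csf3r, and keeping low genes or drawing equal numbers of cells that of Mmp9. Of 13 specific granule genes 8 were tested and 1 fell (Lyz2, beside 4.48% of all tested genes), with a list median of -0.00 beside -0.02 for all 1385 genes. All 4 tested genes of the gelatinase granules and all 4 S100 genes missed the threshold, and no azurophil granule gene was abundant enough to be tested. Beside 7.22% of all tested genes, 1 of 12 tested chemotactic and growth factor receptors rose: Ccr1 (0.26 ± 0.09, adjusted p = 0.0355), a receptor for CCL3. Of 10 tested adhesion genes 1 rose, close to the same share: Cd24a (0.45 ± 0.13, adjusted p = 0.0140). Of 5 tested genes of the NADPH oxidase 1 fell, again beside 4.48%: Cyba, its membrane subunit, fell by 0.17 (SE 0.06, adjusted p = 0.0491).

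Cytokines formed the list with the most increases. The members of this and all other lists were chosen with earlier results of these data known. Counts by list, here and at each age, are therefore a description and no test of the list. Of 21 cytokine and chemokine genes 12 were tested, 6 rose (7.22% of all tested genes did) and none fell (4.48%), with a median of 0.59 beside -0.02 for all genes. Ccl3, a macrophage inflammatory protein, rose by 1.08 ± 0.18 (adjusted p = 4.2e-05), Il1rn, the antagonist of the interleukin-1 receptor, by 0.69 ± 0.20 (adjusted p = 0.0203), Cxcl2 by 0.60 ± 0.17 (adjusted p = 0.0174), Osm, oncostatin M, by 0.47 ± 0.14 (adjusted p = 0.0203) and Il1b by 0.28 ± 0.09 (adjusted p = 0.0389). Ccl3 stood at P14 at 182 to 978 CPM in normoxia (median 676 CPM) and at 1414 to 3232 CPM in hyperoxia (median 2082 CPM). At P7 it stood at 564 to 1765 CPM in normoxia (median 1182 CPM) and at 2505, 2505, 4177, 2544 and 1792 CPM in hyperoxia. Both ages were thus apart, and P3 was not (937 to 1835 CPM and 918 to 2314 CPM). Among the others, Tnf differed by -0.13 ± 0.25 (adjusted p = 0.778) and Ccl2 by 0.70 ± 0.35 (adjusted p = 0.194).

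The stefins, small inhibitors of cysteine cathepsins of which mice have a neutrophil cluster of stefin A genes, were all above 0. Of 9 tested, 4 rose, beside 7.22% of all tested genes: Cstb, Stfa2 (0.46 ± 0.11, adjusted p = 0.00557), 2010005H15Rik (0.54 ± 0.12, adjusted p = 0.00212) and Gm5416 (0.33 ± 0.11, adjusted p = 0.0425), with a list median of 0.33. The stefin A genes are near-identical copies, so reads may have been split among them by the alignment; Cstb lies outside that cluster. Stfa2 stood at P3 at 4180 to 5988 CPM in normoxia (median 4423 CPM) and at 5063 to 9284 CPM in hyperoxia (median 7576 CPM).

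Iron storage and thioredoxin moved together among the antioxidant genes, and most targets of the regulator NRF2 did not pass. Of 29 genes in that list 19 were tested and 4 rose, beside 7.22% of all tested genes: Ftl1 and Fth1, the light and heavy chains of ferritin (0.78 ± 0.13 and 0.70 ± 0.12, both with adjusted p = 3.52e-05), Txn1, thioredoxin (0.54 ± 0.09, adjusted p = 2.65e-05), and Slc7a11, the cystine importer (0.24 ± 0.07, adjusted p = 0.0311). The list median was 0.04. Fth1 stood at 11228 to 23356 CPM in normoxia at P7 (median 14427 CPM) and at 24494, 36032, 46647, 24976 and 24053 CPM in hyperoxia. At P14 it stood at 12410 to 19544 CPM (median 15948 CPM) and 21170 to 36085 CPM (median 26197 CPM), apart at both ages. Nfe2l2 itself differed by 0.16 ± 0.11 (adjusted p = 0.323), Hmox1, which breaks down haem, by 0.31 ± 0.39 (adjusted p = 0.647) and Gsr, glutathione reductase, by -0.13 ± 0.09 (adjusted p = 0.374), while Nqo1 had a mean of 2.57 CPM over mice and was not tested.

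In each list of stress, hypoxia, interferon, pattern recognition, NF-kB, glycolytic, lineage factor and MHC class I genes at most 2 members passed, to be read beside the 7.22% of all tested genes that rose and the 4.48% that fell. In the list of p53 and integrated stress response genes 2 of 7 tested rose, Ddit3 and Atf3 (0.76 ± 0.16, adjusted p = 0.00149), and all 7 lay above 0. Among 5 tested genes of the hypoxia-inducible factor and its targets, Hif1a, which encodes a subunit of the factor (0.98 ± 0.20, adjusted p = 0.000584) and the lipid droplet gene Hilpda (0.74 ± 0.20, adjusted p = 0.0143) rose. Of 13 immediate early and heat shock genes, Hsp90aa1 and Egr1 (0.52 ± 0.15, adjusted p = 0.0196) rose. Ifitm1 and Ifitm2 (0.34 ± 0.11, adjusted p = 0.0275) rose among 8 interferon genes, Cd14 (0.56 ± 0.13, adjusted p = 0.00339) and Clec4d (0.28 ± 0.07, adjusted p = 0.0102) among 11 pattern recognition genes, Ier3 among 13 genes of NF-kB feedback and Pgam1 (0.54 ± 0.15, adjusted p = 0.0136) among 11 glycolytic genes. Irf2 (-0.43 ± 0.13, adjusted p = 0.0323), among 13 transcription factors of the lineage, and H2-K1 (-0.29 ± 0.09, adjusted p = 0.0353), among 7 genes of antigen presentation by MHC class I, fell. None of 7 tested genes of apoptosis and survival and none of 4 genes of lipid mediators passed.

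Among genes of translation and respiration, 13 of 66 ribosomal protein genes tested fell and none rose (median -0.23), beside 4.48% of all genes that fell. Of 39 nuclear genes of oxidative phosphorylation 2 fell (median -0.13), a share near that over all genes, and of 10 mitochondrially encoded genes 4 fell (mt-Nd1, mt-Nd2, mt-Nd3 and mt-Nd4, median -0.38). These decreases are among those that moved with scaling. The median mitochondrial share of UMIs per Neut 1 cell missed the threshold at every age (exact permutation tests, adjusted p = 0.221 to 0.654), although with labels exchanged within pools it was lower at P14 by 0.195 percentage points (exact permutation test, adjusted p = 0.0300).

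**Figure D3:**
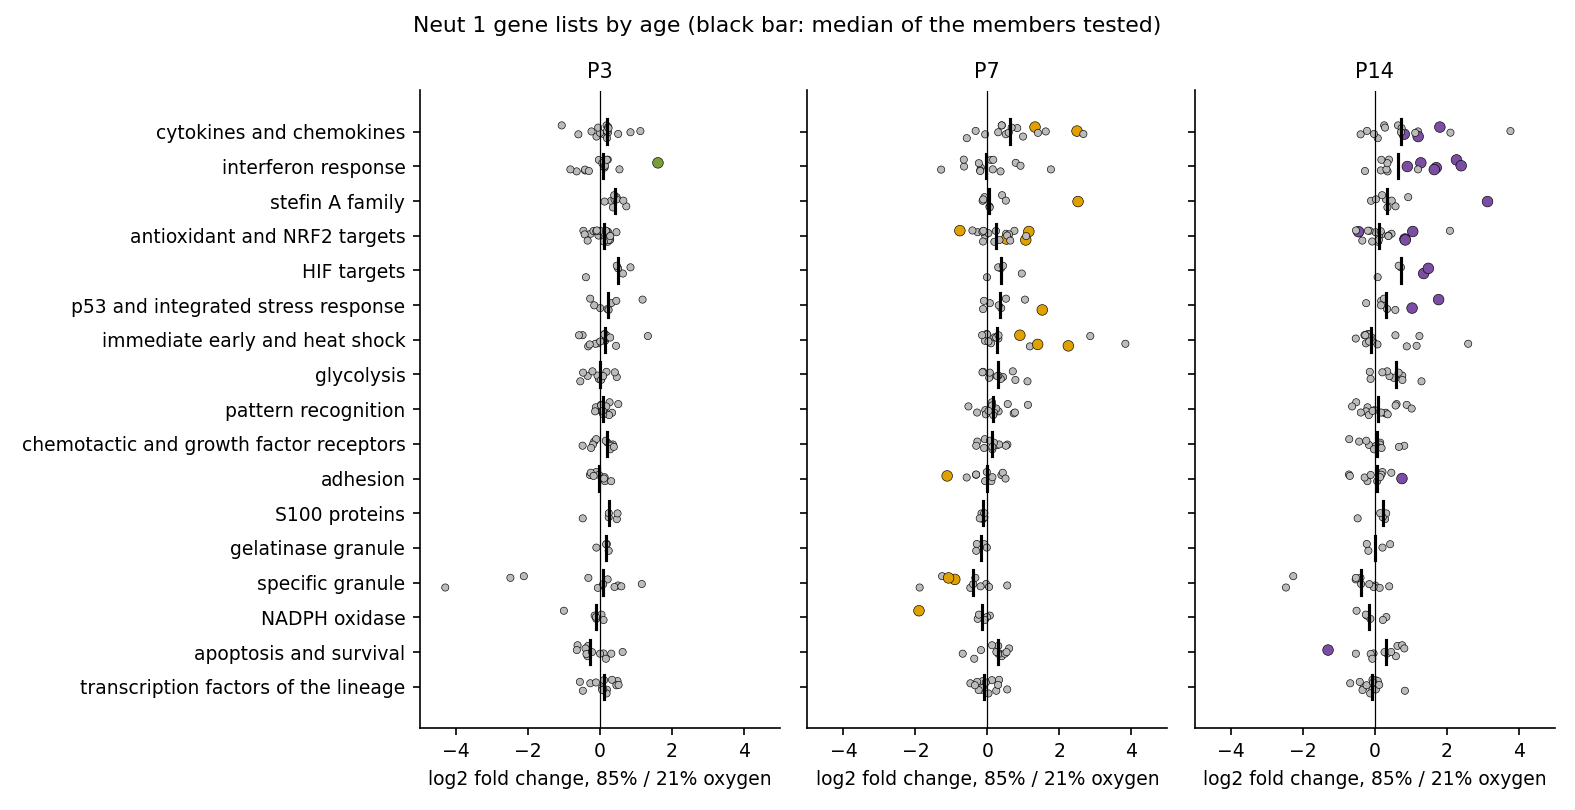
Log2 fold changes in hyperoxia at P3, P7 and P14 (horizontal axes, 1 panel per age) for the tested genes of 17 lists, with 1 point per gene, large coloured points for genes that passed the test, and a bar for the list median. The median of the cytokine list lies at 0.19, 0.63 and 0.74 in the 3 panels, and that of the specific granule list at 0.09, -0.39 and -0.38.

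The genes that passed were counted at each age. A separate mean was fitted for every age and oxygen level, with 1941 genes tested, and 3 genes passed at P3 (0.155%), 58 at P7 (2.99%) and 117 at P14 (6.03%; edgeR quasi-likelihood tests). At P3 all 3 rose: Wfdc17 (3.17 ± 0.60, adjusted p = 0.00795), Rdh12, a retinol dehydrogenase (1.66 ± 0.33, adjusted p = 0.0110), and Ifitm1 (1.61 ± 0.34, adjusted p = 0.0208). Rdh12 stood at 21.1 to 72.1 CPM in normoxia (median 43.8 CPM) and at 76.5 to 184 CPM in hyperoxia (median 129 CPM) and was apart. Ifitm1 stood at 579 to 1317 CPM (median 943 CPM) and 512 to 4277 CPM (median 2632 CPM). Without the 6 shallow mice of the second P3 pool no gene passed at P3 (130 at an unadjusted p below 0.05). Wfdc17 and Ifitm1 were then at 1.66 ± 0.76 and 0.66 ± 0.45, and Rdh12 at 1.52 ± 0.42 (adjusted p = 0.481). Within that pool and within the pool shared with P7 the differences were 3.79 and 1.01 for Wfdc17, 2.45 and 0.36 for Ifitm1, and 1.51 and 1.33 for Rdh12. With pool as a block 12 genes passed at P3, 6 in each direction, and with total UMIs 6 passed, 3 in each.

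At P7, 48 genes rose (2.47%) and 10 fell (0.515%). The largest increases were in Fnip2, a partner of folliculin in nutrient sensing at the lysosome (3.20 ± 0.57, adjusted p = 0.000573), Cstb (2.52 ± 0.28, adjusted p = 9.66e-08), Cxcl3 (2.49 ± 0.65, adjusted p = 0.0204), Prok2 (2.37 ± 0.50, adjusted p = 0.00229) and Hsp90aa1 (2.25 ± 0.42, adjusted p = 0.000848). Fnip2 stood at 0 to 59.2 CPM in normoxia (median 7.01 CPM) and at 188, 88.6, 100.0, 153 and 113 CPM in hyperoxia, above every normoxic mouse. Cxcl3 was uneven, at 143, 69.6, 1182, 18.6 and 312 CPM in hyperoxia against 24.6 to 142 CPM in normoxia (median 87.0 CPM), so that replicates 2 and 4 did not exceed the normoxic range. Its difference was 1.75 in the pool shared with P3 and 0.04 in the other P7 pool, and without replicate 3 it was 1.05 (adjusted p = 0.557). Hsp90aa1 was also uneven among the hyperoxic mice, at 938, 2764, 1595, 177 and 552 CPM against 117 to 651 CPM in normoxia (median 246 CPM), so that replicates 4 and 6 lay within the normoxic range. The largest decreases were in Plac8 (-2.06 ± 0.50), a small cysteine-rich protein of immune cells, Cybb, the catalytic subunit of NADPH oxidase (-1.90 ± 0.47, adjusted p = 0.0161), Degs1 (-1.16 ± 0.24), 9830107B12Rik and Far1 (-1.12 ± 0.32). Cybb stood at 52.2 to 492.6 CPM in normoxia (median 199 CPM) and at 66.2, 44.3, 43.5, 93.0 and 54.3 CPM in hyperoxia. Lyz2 (-1.08 ± 0.23) and Mmp8, the neutrophil collagenase (-0.91 ± 0.24, adjusted p = 0.0204), fell among 11 specific granule genes. The 5 Neut 2 genes Camp, Ngp, Ltf, Fcnb and Chil3 summed in Neut 1 to 19.7 to 837 CPM in normoxia (median 374 CPM). In hyperoxia they summed to 25.3 to 274 CPM (median 172 CPM), and their part in these decreases was not tested.

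Counts at P7 turned on single mice. Without hyperoxic P7 replicate 3, which had the highest CPM of Wfdc17, Cxcl3, Basp1, Ccl3 and Fth1 in its group, 29 genes passed (24 higher and 5 lower), and over all ages 102 passed. Without hyperoxic P7 replicate 6, 100 genes passed. Markers of mast cells and basophils, whose cluster Mast Ba2 held Ccl3 and Ifitm1 at 19630 and 15548 CPM, summed over 8 genes to 493 CPM in hyperoxic P7 replicate 2, of which Cpa3 made up 411 CPM, and to at most 37.3 CPM in every other mouse. They were at 0 in replicate 3, Fcer1a was at 0 throughout, and without replicate 2 49 genes passed at P7. Red cell RNA was carried by 3 P7 mice (normoxic replicates 4 and 5 and hyperoxic replicate 6, at 21862 to 37507 CPM over 5 red cell genes, against at most 926 CPM in the others), and without them 35 genes passed at P7.

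At P14, 78 genes rose (4.02%) and 39 fell (2.01%). Fnip2 (3.58 ± 0.54, adjusted p = 2.46e-05), Cstb (3.13 ± 0.30, adjusted p = 6.29e-10), Naa50, an acetyltransferase of protein N-termini (2.66 ± 0.49, adjusted p = 0.000419), and Slfn4, an interferon-inducible schlafen (2.40 ± 0.45, adjusted p = 0.000508), were among the genes that rose most. Fnip2 stood at 0 to 78.9 CPM in normoxia (median 4.51 CPM) and at 135 to 525 CPM in hyperoxia (median 207 CPM), apart as at P7. The largest decreases were in N4bp2l1 (-1.36 ± 0.31, adjusted p = 0.00555), Mllt10, Pmaip1, the proapoptotic NOXA protein (-1.30 ± 0.37, adjusted p = 0.0274), Pgls and Sla. Pmaip1 stood at 94.6 to 197 CPM in normoxia (median 128 CPM) and at 10.1 to 93.3 CPM in hyperoxia (median 53.8 CPM) and was apart. Here too the split moved with scaling, from 78 to 39 to 157 to 2 with low genes kept (90 to 15 with the scaling factors of the filtered genes) and 65 to 70 with total UMIs, and the epithelial transcript Sftpc fell by 0.93 (SE 0.22, adjusted p = 0.00656). Summed markers of T and NK cells in Neut 1 had medians of 70.7 CPM in normoxia and 24.7 CPM in hyperoxia. Those of interstitial macrophages were at 387 and 230 CPM. Those of dendritic cells (138 and 159 CPM) and of alveolar macrophages without Ctsd and Fabp5 (52.2 and 101 CPM) moved up. The part of these transcripts in the changes at P14 was not tested.

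Some interferon genes rose at P14. Of 40 listed genes 14 were tested, 6 rose and none fell (4.02% and 2.01% over all genes), with a median of 0.65 beside -0.03 for all genes. Besides Slfn4 and Ifitm1 (1.28 ± 0.34) these were Rtp4 (2.27 ± 0.62, adjusted p = 0.0197), Oasl2 (1.71 ± 0.52, adjusted p = 0.0408), Ifi27l2a (1.65 ± 0.52, adjusted p = 0.0462) and Ifitm3 (0.90 ± 0.25, adjusted p = 0.0195). Ifitm3 stood at 311 to 460 CPM in normoxia (median 395 CPM) and at 533 to 808 CPM in hyperoxia (median 721 CPM), and Ifi27l2a at 18.9 to 221 CPM (median 40.9 CPM) and 221 to 513 CPM (median 250 CPM). The Ifitm3 groups lay apart and those of Ifi27l2a were apart by less than 1 CPM, at 220.8 and 221.05 CPM. The counts were low for Oasl2 and Rtp4, whose hyperoxic medians were 170 and 113 CPM. At P7 Ifitm3 and Ifi27l2a were at -0.65 ± 0.24 and -1.28 ± 0.49 and did not pass (adjusted p = 0.136 and 0.147), and at P3 1 of the 14 rose (0.155% of all genes did), Ifitm1, which did not pass without the second P3 pool. At P14, B cells held a UMI of Ifi27l2a in 22.1% of normoxic and 43.4% of hyperoxic cells, pooled over mice and not thinned. Over all ages B cells had a median of 1993 UMIs in normoxia and 2640 UMIs in hyperoxia. Their shares at equal depth are given below, and a change in B cells was not tested.

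Genes that rose at both P7 and P14 numbered 27, which is 56.3% of the 48 at P7 and 34.6% of the 78 at P14. They were Ankrd12, Atp6v1a, Atp6v1c1, Basp1, Ccl3, Cd63, Cstb, Ctsd, Dedd2, Eea1, Esd, Fnip2, Fth1, Ftl1, Gabarap, Gla, Ier3, Mafk, Naa50, Rbpj, Rnh1, Sdcbp, Skil, Socs3, Suco, Txn1 and Xbp1. Of their products, Atp6v1a and Atp6v1c1 are subunits of the proton pump V-ATPase, Ctsd is cathepsin D, Gla is α-galactosidase A, Cd63 is a tetraspanin of late endosomes, Eea1 tethers early endosomes and Gabarap belongs to the autophagy machinery. These were picked from the 27 for what their products do. No list of endosomal or lysosomal genes was set, and their share among all tested genes was not counted. Gla stood at P7 at 26.1 to 98.5 CPM in normoxia (median 54.0 CPM) and at 177, 209, 174, 228 and 145 CPM in hyperoxia, and Cd63 at 170 to 238 CPM (median 210 CPM) and 397, 696, 813, 656 and 371 CPM, both apart. Only Far1 fell at both ages, which is 10.0% of the 10 and 2.56% of the 39 decreases.

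Alveolar macrophages hold more of several of these transcripts than Neut 1 cells, with 1252 CPM of Cstb and 6726 CPM of Ctsd against 662 and 755 CPM in Neut 1. Their 8 markers other than Ctsd and Fabp5 (Ear1, Ear2, Lpl, Plet1, Marco, Mrc1, Atp6v0d2 and Krt79) summed in Neut 1 to 18.9 to 94.6 CPM in normoxia (median 52.2 CPM) and 56.1 to 168 CPM in hyperoxia (median 101 CPM) at P14, and to 39.1 to 501 CPM (median 72.3 CPM) and 25.3 to 104 CPM (median 55.2 CPM) at P7. Ear1 had a median of 0 CPM in both P14 groups, and Krt79 a median of 0 CPM in all 6 groups. The sum moved up with Cstb at P14 and not at P7, and its part in the result was not tested. Of the 2 markers of that list abundant enough for the test over all ages, both rose (Ctsd 0.54 ± 0.14, Fabp5 0.75 ± 0.26).

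Promoters of these 27 genes were searched because the genes rose together at both ages. The windows were those of RefSeq on GRCm38.p6, from 250 bases before to 50 bases after the gene start, with at least 1 window for 23 of the 27 genes. The motif TCACGTGA, the palindrome bound by factors of the TFEB family and a longer form of the E-box CACGTG, was in 3 of the 23 (13.04%: Atp6v1a, Ctsd and Gla), against 3.11% of the 1542 tested genes with a window and 1.12% of all 27025. CACGTG was in 6 of the 23 (26.1%) against 13.6% and 8.09%. TGACNNNGC, the core bound by NRF2 with small MAF proteins, was in 6 (26.1%) against 21.5% and 13.99%, and the AP-1 site TGACTCA in 1 (4.35%) against 5.58% and 5.95%. Both strands were searched. The 3 stretches below are shown because they hold the longer motif; they run 5′ to 3′ on the strand of the gene, the minus strand in each, with TCACGTGA in capitals.
Atp6v1a, chr16:44139344-44139431, minus strand: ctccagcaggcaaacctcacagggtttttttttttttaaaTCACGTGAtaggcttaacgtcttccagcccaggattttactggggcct
Ctsd, chr7:142387879-142387966, minus strand: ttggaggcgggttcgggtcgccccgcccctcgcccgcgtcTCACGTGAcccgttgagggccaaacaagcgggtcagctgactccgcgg
Gla, chrX:134601186-134601255, minus strand: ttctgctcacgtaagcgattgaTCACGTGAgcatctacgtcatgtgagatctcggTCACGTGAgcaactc
The motif began 132 bases before the gene start in Atp6v1a and 99 bases before it in Ctsd, and Gla held 2 copies, the farther of them 228 bases before its start. Atp6v1a and Naa50, which both rose at P7 and P14, start head to head on chromosome 16, with windows at chr16:44139210-44139509 (minus strand) and chr16:44139541-44139840 (plus strand). A match says only that these letters are in the window.

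For 13 genes the hyperoxia effects at P14 and P3 differed (0.67% of 1941; interaction term, edgeR quasi-likelihood test). Of these 9 had a higher (0.464%) and 4 a lower (0.206%) effect at P14. Cstb (3.00 ± 0.42, adjusted p = 1.72e-05), Ctsb, the cysteine protease cathepsin B (2.27 ± 0.53, adjusted p = 0.0257), Capg (1.71 ± 0.42, adjusted p = 0.0489) and Tes (1.67 ± 0.42, adjusted p = 0.0489), both regulators of actin, were among those with the largest differences of effects. Ccl3, Lgals3, Rnh1 and Skil had a higher effect at P14 as well. The gene of cathepsin B and that of its inhibitor Cstb were thus both in this group. Ctsb stood at P14 at 60.6 to 205 CPM in normoxia (median 114 CPM) and at 281 to 1108 CPM in hyperoxia (median 378 CPM), apart, and at P3 at 124 to 326 CPM and 108 to 227 CPM. Rdh12 (-2.23 ± 0.43, adjusted p = 0.00699), Zmat2 (-1.87 ± 0.48), Klf3 (-1.43 ± 0.29, adjusted p = 0.00826) and Stk17b (-0.97 ± 0.22, adjusted p = 0.0202) had a lower effect at P14. Rdh12 rose at P3 and stood at P14 at 109 to 311 CPM in normoxia and 91.2 to 152 CPM in hyperoxia. Between P7 and P3 1 gene differed, Cstb (2.39 ± 0.41, 0.0515% of 1941 genes), and between P14 and P7 none did (105 at an unadjusted p below 0.05; DESeq2 called 1).

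Without the mice of the second P3 pool 1 gene passed between P14 and P3, Cstb (2.73 ± 0.51, adjusted p = 0.0140), and none between P7 and P3. The sizes moved little: Ctsb was then at 2.23 ± 0.66 (adjusted p = 0.164), Capg at 1.76 ± 0.49, Tes at 1.74 ± 0.44, Rdh12 at -2.04 ± 0.50, Zmat2 at -1.73 ± 0.58, Klf3 at -1.49 ± 0.35 and Stk17b at -0.92 ± 0.27 (adjusted p = 0.0752 to 0.234 for these 7 genes). With the 12 mice of the pool shared by both ages alone, the P7 and P3 effects on Cstb differed by 2.02 ± 0.56 (adjusted p = 0.207). With pool as a block 31 genes passed between P14 and P3, and with low genes kept 36, of which 33 had a higher effect at P14.

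**Figure D4:**
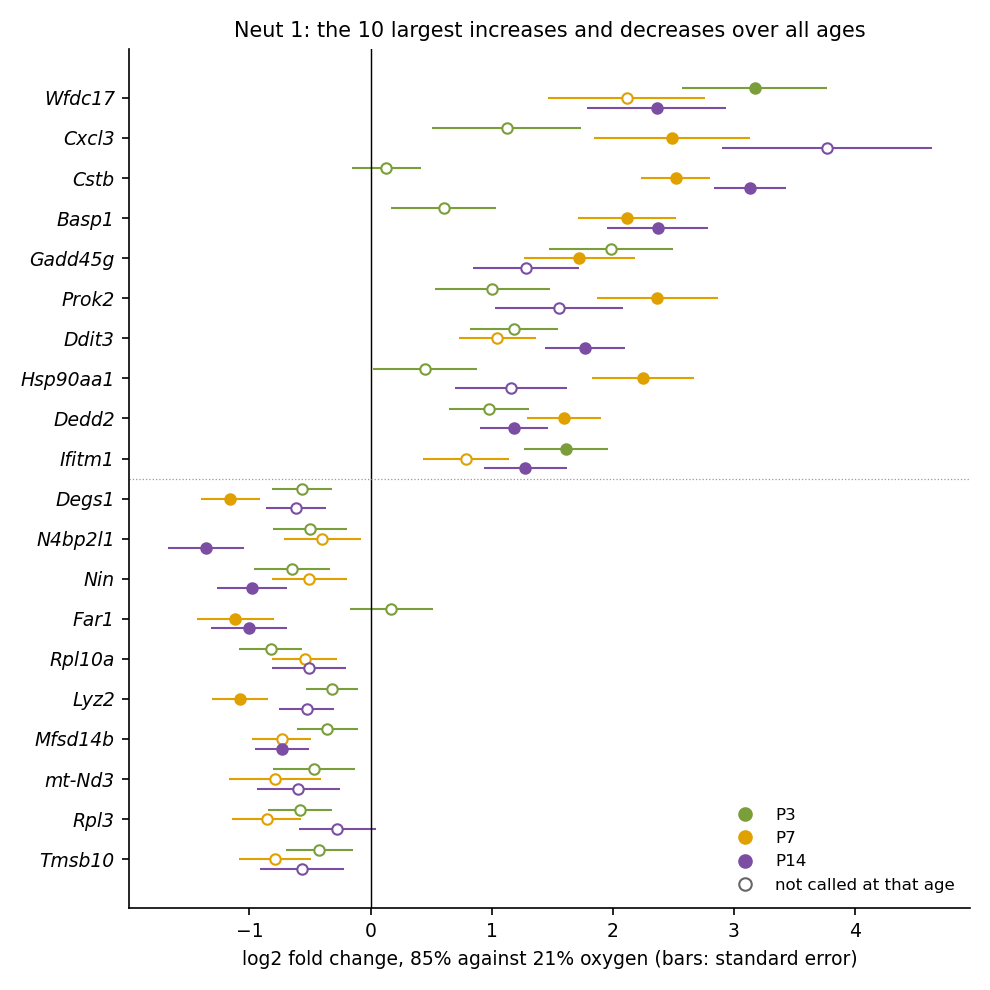
Log2 fold changes in hyperoxia at P3, P7 and P14 (horizontal axis, points with bars of 1 SE) for the 10 genes with the largest increases and the 10 with the largest decreases over all ages, where filled points passed the test at that age. Cstb moves from 0.13 at P3 to 2.52 at P7 and 3.13 at P14, and Wfdc17 is at 3.17, 2.11 and 2.36.

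Neut 1 cells also differed with age. In normoxia 297 genes (15.3% of 1941) differed between P14 and P3, 151 higher (7.78%) and 146 lower (7.52%), and 90 (4.64%) between P14 and P7. Between P7 and P3, ages that shared a pool, 1 did (0.0515%), the haemoglobin gene Hbb-bs in the mice with red cell RNA. With pool as a block these were 144 between P14 and P7 and 10 between P7 and P3. In hyperoxia 287 genes (14.8%) differed between P14 and P3, 155 higher (7.99%) and 132 lower (6.8%), 50 (2.58%) between P14 and P7 and 34 (1.75%) between P7 and P3 (97 and 70 for the last 2 with pool as a block). Without the second P3 pool 159 and 130 genes passed between P14 and P3 in normoxia and in hyperoxia. The directions rested on scaling: between P14 and P3 the split was 299 to 58 in normoxia and 378 to 50 in hyperoxia with total UMIs, which moved the median of all genes by 0.22 and 0.24, and 50 to 96 and 103 to 53 with low genes kept. Age and pool cannot be told apart for P14. The paper also names an unequal distribution of the sexes at P3 and P7 as a limit, with an equal one at P14. Sex was not in the fits over age or oxygen, and its part in the results was not tested.

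Between P3 and P14 in normoxia, 3 of 12 chemotactic and growth factor receptors tested rose and 1, Ccrl2, fell, and 2 of 4 genes of gelatinase granules rose (Mmp9 and Adam8). Beside these, 2 of 5 S100 genes and 4 of 11 specific granule genes fell, where 7.78% of all genes rose and 7.52% fell. Cxcr2 rose by 1.03 ± 0.16 (adjusted p = 2.64e-05), from 253 to 437 CPM (median 321 CPM) to 713 to 815 CPM (median 783 CPM), with no overlap. Cxcr4, the receptor that returns aged neutrophils to the bone marrow, rose by 0.92 ± 0.24 (adjusted p = 0.00750), Csf3r by 0.73 ± 0.17 (adjusted p = 0.00332) and Mmp9 by 0.75 ± 0.18 (adjusted p = 0.00410). S100a8 and S100a9 were lower at P14 in normoxia (-0.64 ± 0.19 and -0.63 ± 0.17) and in hyperoxia (-0.82 ± 0.19 and -0.80 ± 0.17), and Olfm4, a specific granule protein, was lower by 2.39 and 2.20 (SE 0.41 and 0.36). Olfm4 stood at 531 to 1216 CPM at P3 in normoxia (median 940 CPM) and at 126 to 424 CPM at P14 (median 171 CPM), with no overlap. The specific granule genes that fell in normoxia were Olfm4, Hp, Wfdc21 and Lyz2, and in hyperoxia, where 6.8% of all genes fell, 8 of the 11 did, which added Lcn2 (-1.49 ± 0.33, adjusted p = 0.00176), Chil1, Mmp8 and Pglyrp1. The summed CPM of 6 genes of the smaller cluster Neut 2, where S100a8, S100a9 and the specific granule genes Camp, Ngp and Ltf were higher, was lower at P14 too, with medians of 1112 CPM at P3 and 346 CPM at P14 in normoxia and 842 and 327 CPM in hyperoxia. Olfm4 is 1 of those 6 genes, and without it the medians were 66.2 and 197 CPM in normoxia and 65.7 and 95.6 CPM in hyperoxia, higher at P14. Fcnb was at 0 throughout, and the part of Neut 2 transcripts in the decreases was not tested. The list medians were -0.65 and -0.95 beside -0.02 and -0.03 for all genes. Whether the lists differed between oxygen levels was not tested.

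Of 16 cytokine and chemokine genes tested between P14 and P3 in normoxia, 4 fell and 1 rose, beside 7.52% and 7.78% of all genes. The chemokines Ccl2 (-2.82 ± 0.74, adjusted p = 0.00851), Cxcl2 (-1.87 ± 0.29, adjusted p = 4.09e-05) and Ccl3 (-1.31 ± 0.27, adjusted p = 0.00133) fell, as did the cytokine Tnf (-1.82 ± 0.40, adjusted p = 0.00206), and the growth factor Vegfa rose (1.34 ± 0.47, adjusted p = 0.0472). Cxcl2 went from 10330 to 31998 CPM at P3 (median 18250 CPM) to 4102 to 8210 CPM at P14 (median 6062 CPM), with no overlap. In hyperoxia Cxcl2 fell by 1.36 (SE 0.29, adjusted p = 0.00133), and Ccl3, Tnf and Ccl2 were at 0.27 ± 0.25, -0.11 ± 0.35 and -0.94 ± 0.47 and did not pass (adjusted p = 0.483, 0.863 and 0.167). Among these 4 the effect of oxygen differed between P14 and P3 by the test for Ccl3. The largest increases with age in normoxia were in Nlrp12, a brake on NF-kB signalling (2.03 ± 0.43, adjusted p = 0.00150), Rdh12 (1.97 ± 0.35), Nfatc1 (1.80 ± 0.37), 2810403A07Rik and the corepressor Tle3 (1.57 ± 0.27). Those in hyperoxia were in Fnip2 (2.82 ± 0.41), Cstb (2.09 ± 0.25), Gla (1.78 ± 0.28), Nampt, the enzyme that makes the precursor of NAD (1.77 ± 0.29), and Basp1 (1.74 ± 0.36).

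**Figure D5:**
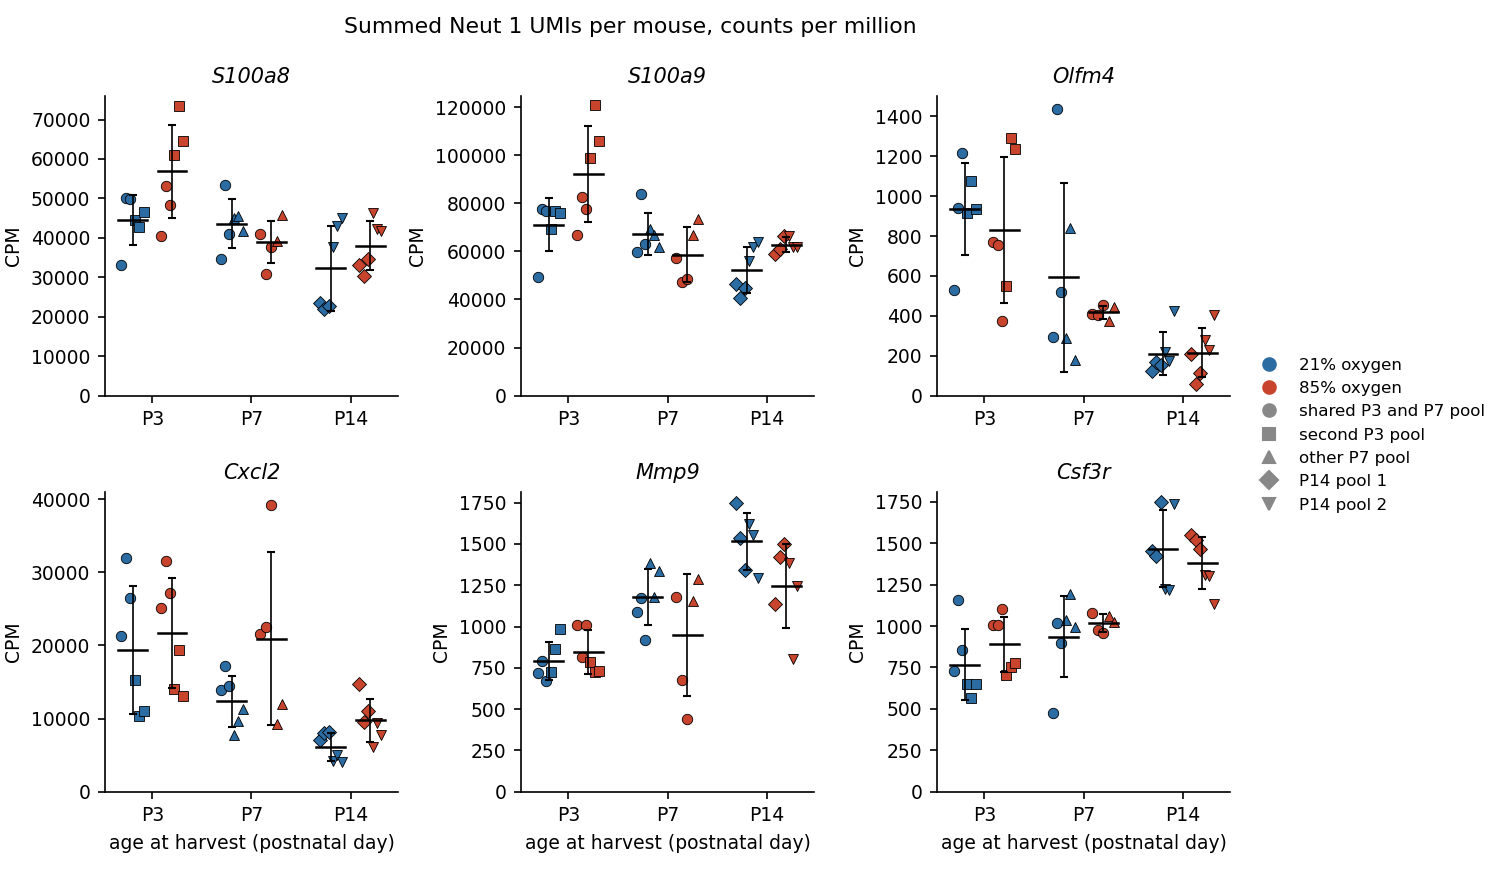
Levels in Neut 1 cells (CPM of summed Neut 1 UMIs, vertical axes from 0) of S100a8, S100a9, Olfm4, Cxcl2, Mmp9 and Csf3r by age and oxygen level, with 1 point per mouse, its shape giving the pool, and bars for the mean and SD. In normoxia Olfm4 lies at 531 to 1216 CPM at P3 and at 126 to 424 CPM at P14, and Cxcl2 at 10330 to 31998 CPM and at 4102 to 8210 CPM.

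The response to oxygen was compared with that of monocytes and alveolar macrophages of the same mice, the other myeloid types with the most cells. The effect of hyperoxia differed between Neut 1 cells and monocytes for 160 of 3393 genes (4.72%; oxygen-by-type term, edgeR quasi-likelihood test with mouse as a block), 88 with a higher (2.59%) and 72 with a lower (2.12%) effect in Neut 1. In monocytes themselves hyperoxia changed 212 of 3628 genes (5.84%). Among the 5 highest terms was that of the cytosolic chaperone gene Hsp90aa1 (1.53 ± 0.25), which was at -0.39 ± 0.13 in monocytes. The other 4 of these genes, Hspa1b, Hspa1a, Mafk and Naa50, were too low for the fit of Neut 1 cells over all ages, so their terms are not described.

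Of the 100 genes that rose in Neut 1 cells over all ages, 38 had a term above 0 against monocytes, among them Cstb (1.47 ± 0.22, with 0.47 ± 0.10 in monocytes), Ddit3 (1.47 ± 0.22, with -0.09 ± 0.17 in monocytes), Dedd2 (1.36 ± 0.25) and Wfdc17 (1.21 ± 0.26, with 1.03 ± 0.14 in monocytes), and 2 had a term below 0. These counts are a description, since the rise in Neut 1 cells that chose the 100 genes is part of each term, and 2 of the 38 and 1 of the 2, Basp1 among the former, were too low for the fit of monocytes. Cxcl2 and Ifitm1 did not differ by the test (-0.02 ± 0.18 and 0.36 ± 0.28, adjusted p = 0.980 and 0.525). When every cell was thinned to 500 UMIs, 791 genes were tested and 44 terms passed. Those for Cstb, Hsp90aa1 and Wfdc17 were among them, at 1.45, 1.55 and 1.29, and 6 other named terms of genes in the Neut 1 fit that had passed before thinning did not pass after it (adjusted p = 0.054 to 0.415). The term of Degs1 moved from -0.62 to -0.81, Tmsb10 from -0.74 to -0.75, Jaml from -0.97 to -1.04 and Rpl3 from -0.63 to -0.52, and those of Rpl10a (-0.70 to -0.30) and Olfm4 (-2.30 to -1.32) came closer to 0. Cln8, Ms4a6c, Olfm4 and Wfdc21 were among the lowest terms, but each passed the filter on low counts in 1 of the types alone, and in Neut 1 cells Olfm4 and Wfdc21 themselves were at -0.16 ± 0.21 and 0.28 ± 0.14 and did not pass. S100a8 and S100a9 rose in monocytes (1.98 ± 0.32 and 1.99 ± 0.48) and had terms of -1.61 ± 0.27 and -2.02 ± 0.44. The share of Neut 1 cells given above moved with them, and its part in the monocyte values was not tested.

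Against alveolar macrophages, where hyperoxia changed 50.3% of 7341 genes, 846 of 5887 terms (14.4%) passed, 482 above 0 (8.19%) and 364 below 0 (6.18%). Of the 100 increases in Neut 1 cells 29 had a higher and 18 a lower effect than in macrophages, again a description, with 1 gene of each too low for the fit of macrophages. Dedd2 (2.14 ± 0.24), Gadd45g (1.68 ± 0.26), Hsp90aa1 (1.24 ± 0.24) and Cxcl2 (0.92 ± 0.19) had terms above 0, as had Cstb (0.64 ± 0.21, adjusted p = 0.0316), although Cstb rose in macrophages as well (1.35 ± 0.10). Wfdc17, Basp1, Ddit3 and Ctsb rose in both types and did not differ by the test (-0.66 ± 0.40, 0.18 ± 0.23, 0.37 ± 0.23 and -0.45 ± 0.20, adjusted p = 0.305, 0.676, 0.325 and 0.134). Degs1 and Lyz2 fell in Neut 1 cells and rose in macrophages, with terms of -1.39 ± 0.16 and -1.28 ± 0.15. The lowest term was that of Itgam, an integrin chain (-3.87 ± 0.28), which rose by 4.003 ± 0.273 in macrophages and was at 0.04 ± 0.11 in Neut 1 cells. Slc11a1, also among the 5 lowest, and Rab44, among the 5 highest, did not pass in Neut 1 cells either (0.16 ± 0.13 and -0.17 ± 0.16) and were at 3.40 ± 0.34 and -2.50 ± 0.19 in macrophages. Adam8, among the 5 lowest, was too low for the fit of macrophages, so its term is not described. The other 6 of these 10 genes, Il7r, Mfge8, Xlr, Gas2l3, Cenpf and Syne2, were too low for the fit of Neut 1 cells alone, so their terms are not described.

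Changes were also read as the share of Neut 1 cells with a UMI of a gene after every cell was thinned to 500 UMIs. Of 84 tests on 28 genes at 3 ages none passed (exact permutation tests over mice; 17 at an unadjusted p below 0.05, and 19 without thinning), and with 6 mice against 6 the smallest p that can be reached is 0.00216. The lowest p was that of 3 tests, in which the groups did not overlap. Osm at P14 had a UMI in 12.96% to 20.3% of cells in normoxia (median 16.8%) and 23.6% to 33.3% in hyperoxia (median 26.05%). Lyz2 at P7 had one in 46.7% to 64.4% of cells (median 53.5%) and in 23.97% to 43.8% (median 37.4%), and Ifi27l2a at P14 in 1.85% to 5.08% and 5.26% to 10.2% (each with p = 0.00216 and adjusted p = 0.0606, exact permutation tests). B cells, which should lack Osm and Lyz2 and were thinned to the same depth, had a UMI of Osm in at most 0.106% of cells at P14, and of Lyz2 in 6.37% and 5.10% at P7. They had a UMI of Ifi27l2a in 7.09% and 14.1% of cells at P14, more than the medians of Neut 1 cells. The shares of B cells were taken over the pooled cells of all mice of a group and were not tested.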

How the data were processed

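Single-cell RNA-seq was made from the lungs of 36 mice in 5 pools (6 libraries), and mice were told apart by MULTI-seq sample barcodes. The deposited table holds raw UMI counts per gene and cell, made by the authors with Cell Ranger 3.0.2 on mm10 per the labels, with cells of few genes or a high mitochondrial share, contaminating clusters and doublets of sample barcodes removed by the authors. The smallest number of genes in a deposited cell was 209, and 378 of the 61839 cells lay above 20% mitochondrial UMIs, the limit the methods give. No further doublet caller was run. Deposited cell type labels were used as given.

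The replicate was the mouse, the pair of pool and sample barcode, and replicate numbers only name mice. UMIs of the Neut 1 cells of a mouse were summed, mice with under 10 such cells were left out, and sums were tested with edgeR 4.0.16 (quasi-likelihood test, TMM factors, filterByExpr, Benjamini-Hochberg adjustment over all tested genes) in R 4.3.3, with age as a covariate over all ages and a mean per group otherwise. Comparisons with monocytes and alveolar macrophages had mouse as a block. Calls needed an adjusted p below 0.05 and UMIs detected in 10% or more of the cells of a compared group. Shares of cells and of cells with a UMI were compared over mice by two-sided exact permutation tests, computed in Python 3.11.15 with numpy 2.4.6. On simulated data over all ages 1373 genes passed the filter on low counts, and only these were scored. The fit called 100% of the 50 and 50 genes raised by 1 and 2 (log2). It also called 100% of the 38 and 35 lowered by 1 and 2, and 0.75% of 1200 unchanged genes. Equal numbers of raised and lowered genes were drawn, so the filter removed lowered ones. The simulation held no effect of age or pool, and the spread of a gene followed the trend over all genes. Its calls did not need detection in 10% of cells. Changes smaller than 1 (log2) were not drawn, so it gives no rate for the smaller changes reported above. Depth ran from 45688 to 294707 summed UMIs per mouse. Intervals were not needed for counts, and errors are SDs over mice or SEs of fits.

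The genes named are the 10 with the largest change in each direction over all ages and the 5 in each other comparison, among called genes whose average log2 CPM reached 5, with the members of the gene lists. A few genes that this rule names are not reported here. The members and lists were chosen with earlier results of these data known. Mice of 1 pool share a library and, per the labels, a pool number, so pool within age was tried as a block. Deviations from group means were correlated between mice of opposite oxygen level. The median was 0.0883, 0.155 and 0.0707 within a pool at P3, P7 and P14, and -0.109, -0.154 and -0.0748 between pools. Deviations cancel out within a group, so positive values within pools bring negative ones between pools by construction. DESeq2 1.42.0, no filter, equal cells per mouse, thinning to 500 UMIs and left-out mice were further alternatives. Those leaving out the mice with haemoglobin RNA or the second P3 pool, using the pool shared by P3 and P7 alone, using total UMIs or keeping the factors of the filtered genes were chosen after seeing the data. Promoter sequences are from RefSeq on GRCm38.p6.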

Additional observations from a re-analysis of the deposited data

Results flagged for a closer look

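Single mice stood apart in their group, by the gap to the next mouse as a part of the group's range, in 18 of 174 groups tested over 29 results. The cutoff gives about 1 in 20 for normally distributed values, which these were not shown to be. The results also share mice, so the number flagged cannot be set against a chance rate. Of the Neut 1 share, these were 2.66% in a hyperoxic P7 mouse, the lowest of its group, and 4.99% in a normoxic P14 mouse, the highest. The median of 718 genes per Neut 1 cell was the lowest of normoxic P7.

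Of the gene levels, high mice stood apart for Wfdc17 at P7 in normoxia (417 CPM) and in hyperoxia (2147 CPM), Cxcl3 in hyperoxia at P7 (1182 CPM), Cstb in normoxia at P3 (463 CPM) and in hyperoxia at P14 (2777 CPM), Gadd45g in hyperoxia at P3 (663 CPM), Prok2 in normoxia at P3 (329 CPM), Hsp90aa1 in normoxia at P7 (651 CPM), Dedd2 in normoxia at P14 (221 CPM) and Ifitm1 at P7 in normoxia (1865 CPM) and in hyperoxia (2634 CPM). The high values of Wfdc17, Cxcl3 and Ifitm1 in hyperoxia at P7 came from the same mouse, replicate 3. Low mice stood apart for Degs1 in hyperoxia at P14 (89.1 CPM), mt-Nd3 in hyperoxia at P7 (33.1 CPM), Rpl3 in hyperoxia at P14 (99.9 CPM) and S100a9 in normoxia at P3 (49527 CPM).

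The effect of hyperoxia differed between ages by the interaction test. The difference of log2 effects between P14 and P3 was 3.00 for Cstb, 2.27 for Ctsb, 1.71 for Capg and 1.67 for Tes, and it was -2.23 for Rdh12, -1.87 for Zmat2, -1.43 for Klf3 and -0.97 for Stk17b. Between P7 and P3 it was 2.39 for Cstb.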

How the results depend on the processing

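Summed UMIs per mouse and the number of Neut 1 cells limit the calls. Of 108 results on single genes, in 1355 combinations of gene and setting, 1231 kept direction and side of the threshold, 119 lost the call, 2 gained it and 3 changed sign: Csf3r at -0.041 when cells were thinned, and Mmp9 at 0.077 without a filter and at 0.070 with equal cells. A gene that fell out of the filter under a setting was not counted there. After thinning 43 of the 108 kept direction and side, 8 lost the call and 1 changed sign, and with equal cells 32, 14 and 1 did. The rest could not be scored. Counts of called genes moved as follows, and the cause was not tested except where fewer cells, UMIs or mice entered by construction.

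Over all ages (162 called) equal cells per mouse gave 42, thinning 66, no P14 mice 30, and leaving out 1 hyperoxic P7 mouse 102 to 168. At P3 (3 called) DESeq2 gave 6, no filter 17 (also 17 with the factors of the filtered genes), pool as a replicate block 12, total UMIs 6 and no second P3 pool 0. At P7 (58) no filter gave 113, the factors of the filtered genes 91, equal cells 14, thinning 21, no mice with haemoglobin RNA 35, and leaving out 1 mouse 29 to 100. At P14 (117) equal cells gave 18 and thinning 60. Between P14 and P3 effects (13) no filter gave 36, the filtered factors 35, the block 31, equal cells 0, thinning 8, total UMIs 8, no haemoglobin mice 8, no second P3 pool 1, and leaving out 1 mouse 8 to 14. Between P14 and P7 effects (0) no filter gave 2, DESeq2, the block, equal cells and thinning 1 each, the filtered factors 3, and leaving out 1 mouse 0 to 1. Between P7 and P3 effects (1) no filter gave 16, the filtered factors 24, and no second P3 pool and the shared pool alone 0 each.

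For age in normoxia, P7 against P3 (1) moved to 3 with DESeq2, 15 without a filter, 10 with the block, 22 with the filtered factors, 0 with equal cells, without the haemoglobin mice and without the second P3 pool, and 1 to 6 without 1 hyperoxic P7 mouse. P14 against P7 (90) moved to 47 without a filter, 144 with the block, 34 with equal cells, 41 with thinning, 55 with the filtered factors and 150 with total UMIs. P14 against P3 (297) moved to 146, 83 and 125 without a filter, with equal cells and with thinning, and to 159 both with the filtered factors and without the second P3 pool. In hyperoxia P7 against P3 (34) moved to 54 without a filter, 70 with the block, 18 with equal cells, 63 with the filtered factors, 54 with total UMIs, 58 without the haemoglobin mice, 12 without the second P3 pool and 12 to 57 without 1 mouse. P14 against P7 (50) moved to 97 with the block, 32 with equal cells, 16 with thinning, 101 with total UMIs and 30 to 64 without 1 mouse. P14 against P3 (287) moved to 156, 50 and 122 without a filter, with equal cells and with thinning, 183 with the filtered factors and 130 without the second P3 pool. Thinning gave 44 terms against monocytes (160) and 185 against alveolar macrophages (846).

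The Neut 1 share passed at P3 as a percentage of myeloid (difference 10.9 points) or immune cells (9.57 points). At P14 it missed the threshold as a percentage of myeloid cells (12.96 points) and with labels permuted within pools (4.67 points). Among myeloid cells the differences between ages in normoxia changed sign, to 3.49 (P14 against P7) and 1.58 points (P14 against P3), as did that between the P7 and P3 effects (0.122 points). With means in place of medians, UMIs per cell changed sign at P3 (-93.2) and P7 (-49.3), as did the mitochondrial percentage at P7 (-0.134 points). Within pools, genes per cell at P14 (51.5) lost and the mitochondrial percentage at P14 (-0.195 points) gained its call. The pool block changed no call of the 108 results on single genes.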
